A study of Saccharomyces cerevisiae with 18 samples.

Results

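Of the genes of the Gpa2 branch of glucose signalling and of protein kinase A, GPG1 had the highest log2 ratios after exposure of budding yeast to nitrophenol, with each of the 3 isomers, and RGS2 was high in o-Nitrophenol and near 0 in m-Nitrophenol and p-Nitrophenol. The set is 9 named genes, GPR1, GPA2, RGS2, GPG1, GPB1, GPB2, TPK2, TPK3 and BCY1, matched by symbol or systematic name to the annotation of the array's probes. 7 of them had 1 probe each, out of 5365 genes with a named probe on the array, and all 7 had enough values to be fitted among 5096 genes. GPR1 and GPB2 matched no probe in the annotation used and were not analysed here. The genes were selected on the log2 ratios of these same arrays. Their values in the 3 exposures and between the isomers are therefore a description, with means, standard errors and intervals. No p-value of a single member is given, and the counts of members past a threshold support nothing by themselves. The same holds where the arrays of isomers do not overlap. The arrays are few, and the share of all genes separated in this way is not given here.

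Cultures of Saccharomyces cerevisiae S288C in YPD, a rich glucose medium, shaken at 25 °C and at an optical density of 1, received 3 mM o-Nitrophenol, 5 mM m-Nitrophenol or 1.5 mM p-Nitrophenol for 2 h. The isomers differ in the position of the nitro group relative to the hydroxyl group of the phenol ring, and their doses differed as well, so isomer and dose cannot be told apart. PolyA RNA of each of 3 independent cultures per isomer was labelled with Cy5 and hybridised to 1 2-colour array against Cy3-labelled RNA of the same strain before treatment, 9 arrays in all, each scanned at high and at low laser power. Values are log2 ratios, the mean of both scans of an array or the value of 1 scan where the other gave none. Positive ratios are taken to mean more RNA in treated cells, which the dyes and the channel order make likely although no source gives the direction. No array held an untreated culture at 2 h and no dyes were swapped, so 2 h of further growth and dye effects are part of every ratio. A change in RNA per cell and a change in the share of cells that respond cannot be told apart in a culture.

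In this yeast the receptor Gpr1 acts through Gpa2, the alpha subunit of a G protein, to raise cyclic AMP when glucose is plentiful. Cyclic AMP binds Bcy1, the regulatory subunit of protein kinase A, and frees the catalytic subunits, among them Tpk2 and Tpk3. The active kinase favours growth and fermentation and holds down stress and storage genes, largely through the transcription factors Msn2 and Msn4. Rgs2 shortens the active state of Gpa2 by speeding GTP hydrolysis. Gpb1 and Gpb2 are kelch-repeat proteins that bind Gpa2 and lower kinase signalling, and Gpg1 was described as a small partner of Gpb1 and Gpb2 with some features of a gamma subunit.

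The arrays numbered 1 stood apart. They correlated with the others of their isomer at r of 0.502 to 0.610 across genes, against 0.839 to 0.875 for arrays 2 and 3 of an isomer (genes are not independent replicates), and m-Nitrophenol array 1 held values for 1970 genes, against 3797 to 5343 on the other arrays. GPA2, RGS2, GPB1, TPK3 and BCY1 had no value on m-Nitrophenol array 1, RGS2 had none on p-Nitrophenol array 1, and GPB1 had none on o-Nitrophenol array 1. Means of these genes rest on the arrays with a value, as few as 2. GPG1 and TPK2 had a value on all 9 arrays. GPG1 rested on 1 scan on o-Nitrophenol arrays 1 and 2, m-Nitrophenol array 1 and p-Nitrophenol array 1, as did RGS2, TPK2, TPK3 and BCY1 on o-Nitrophenol array 1 and GPB1 and TPK3 on p-Nitrophenol array 1. Where both scans of an array gave a member a value, 46 times in all, the scans differed by a median of 0.19 on the log2 scale, against 0.17 over all genes.

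GPG1 (YGL121C) stood at log2 ratios of 6.53, 6.21 and 5.86 on o-Nitrophenol arrays 1, 2 and 3. On the m-Nitrophenol arrays GPG1 stood at 4.17, 3.95 and 4.57, and on the p-Nitrophenol arrays at 6.06, 2.17 and 3.42. All 9 values were positive, every o-Nitrophenol value lay above every m-Nitrophenol value, and p-Nitrophenol array 1 reached into the range of o-Nitrophenol. The means were 6.20 ± 0.56 in o-Nitrophenol, 4.23 ± 0.56 in m-Nitrophenol and 3.88 ± 0.56 in p-Nitrophenol (SE of the fit, n = 3 each), or 73.6-fold, 18.8-fold and 14.7-fold. In these means GPG1 ranked 7, 6 and 5 from the top of 5096 genes. The p-Nitrophenol arrays were the most spread, with an SD of 1.99, against 0.33 in o-Nitrophenol and 0.31 in m-Nitrophenol. The fit gives all 3 isomers the same spread for a gene, so the SE of 0.56 does not follow these SDs. It is too small for the spread of the p-Nitrophenol arrays alone. p-Nitrophenol array 1 had GPG1 as rank 1 of its 4369 genes, and array 2 as rank 129 of 5247. On p-Nitrophenol array 2 the scans themselves differed, at 1.61 with high power and 2.72 with low power. Without the 3 arrays numbered 1 the GPG1 means were 6.04, 4.26 and 2.79 in o-, m- and p-Nitrophenol.

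RGS2 (YOR107W), the gene of the regulator that turns Gpa2 off, had log2 ratios of 2.58, 2.75 and 3.48 on the o-Nitrophenol arrays. RGS2 had 0.09 and 0.05 on m-Nitrophenol arrays 2 and 3, and -0.20 and 0.34 on p-Nitrophenol arrays 2 and 3. The scans differed on these p-Nitrophenol arrays, at 0.09 and -0.48 and at 0.69 and -0.01 with high and low power. From high-power scans alone the p-Nitrophenol mean was 0.39, and from low-power scans alone -0.25. The o-Nitrophenol minus p-Nitrophenol difference was then 2.52 and 3.38. The o-Nitrophenol values did not overlap those of the other isomers, which lay on both sides of 0 or close to it. The mean was 2.93 ± 0.28 in o-Nitrophenol (n = 3), 0.07 ± 0.34 in m-Nitrophenol (n = 2) and 0.07 ± 0.34 in p-Nitrophenol (n = 2), so that the o-Nitrophenol ratio was 7.64-fold. RGS2 ranked 89 of 5096 genes in o-Nitrophenol, and 2469 and 2620 in m- and p-Nitrophenol. Within the o-Nitrophenol arrays RGS2 stood at percentiles 93.5, 97.4 and 98.9 of the genes measured.

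GPA2 (YER020W), the alpha subunit itself, stayed close to 0. Its log2 ratios were -0.06, -0.72 and -0.34 on the o-Nitrophenol arrays, -0.10 and 0.56 on m-Nitrophenol arrays 2 and 3, and 0.66, -0.34 and -0.33 on the p-Nitrophenol arrays. The isomers overlapped, and the means were -0.37 ± 0.30 in o-Nitrophenol, 0.23 ± 0.36 in m-Nitrophenol and -0.00 ± 0.30 in p-Nitrophenol. The 95% interval ran from -1.04 to 0.30 in o-Nitrophenol, from -0.59 to 1.05 in m-Nitrophenol and from -0.67 to 0.67 in p-Nitrophenol, so changes of up to about these sizes could not be seen with this number of arrays. Within an array the log2 ratio of RGS2 exceeded that of GPA2 by 2.64, 3.46 and 3.81 in o-Nitrophenol, against 0.19 and -0.51 in m-Nitrophenol and 0.15 and 0.67 in p-Nitrophenol. Such a difference shows that the paired genes changed unequally and not that either stayed constant.

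GPB1 (YOR371C), a kelch-repeat inhibitor of the pathway, had log2 ratios of -0.66 and -0.34 on o-Nitrophenol arrays 2 and 3. It had -0.23 and 0.23 on m-Nitrophenol arrays 2 and 3, and 0.71, 0.53 and 1.07 on the p-Nitrophenol arrays. With the scans averaged the isomers did not overlap, in the order p-Nitrophenol above m-Nitrophenol above o-Nitrophenol. The means were -0.50 ± 0.32 in o-Nitrophenol (n = 2), -0.00 ± 0.32 in m-Nitrophenol (n = 2) and 0.77 ± 0.26 in p-Nitrophenol (n = 3). On o-Nitrophenol array 3 the scans disagreed in sign, at 0.30 with high power and -0.98 with low power, the widest gap of any member, at 1.28. From the high-power scans alone the o-Nitrophenol mean was -0.11, beside -0.08 in m-Nitrophenol, and the arrays of these isomers overlapped. From the low-power scans alone the means were -0.89 and 0.07. GPG1 and GPB1, whose products bind each other, changed unequally within each array where both were measured. In p-Nitrophenol both had positive values on every array. The log2 ratio of GPG1 exceeded that of GPB1 by 6.88 and 6.20 in o-Nitrophenol, by 4.19 and 4.34 in m-Nitrophenol, and by 5.35, 1.64 and 2.35 in p-Nitrophenol.

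**Figure D1:**
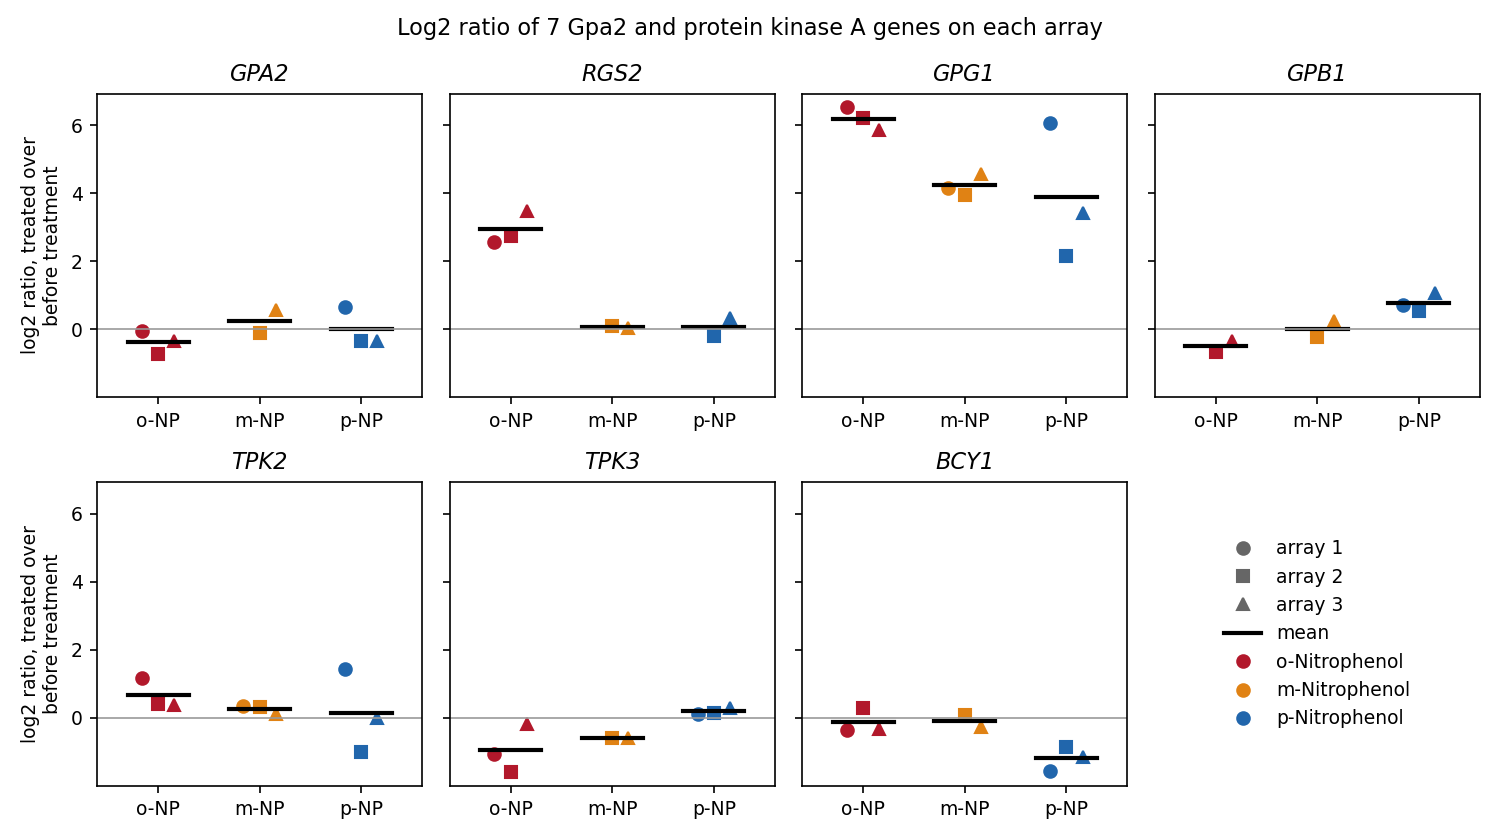
Log2 ratio (treated over before treatment, mean of the scans with a value) of 7 genes of the Gpa2 branch and protein kinase A on each array, with o-Nitrophenol (o-NP), m-Nitrophenol (m-NP) and p-Nitrophenol (p-NP) from left to right, a symbol for each array number and a bar at the mean. GPG1 is high with every isomer and most spread in p-Nitrophenol, RGS2 is high in o-Nitrophenol, and BCY1 is lowest in p-Nitrophenol.

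TPK2 (YPL203W), a catalytic subunit gene, had log2 ratios of 1.18, 0.42 and 0.37 on the o-Nitrophenol arrays. TPK2 had 0.36, 0.31 and 0.10 on the m-Nitrophenol arrays and 1.45, -1.0 and -0.01 on the p-Nitrophenol arrays. The values were positive on all o- and m-Nitrophenol arrays and on both sides of 0 in p-Nitrophenol, where array 1 was the highest of all 9. The means were 0.65 ± 0.40, 0.25 ± 0.40 and 0.15 ± 0.40 in o-, m- and p-Nitrophenol (n = 3 each), each with a 95% interval that held 0. Without the arrays numbered 1 the p-Nitrophenol mean was -0.50, and the o-Nitrophenol and m-Nitrophenol means were 0.39 and 0.20.

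TPK3 (YKL166C), another catalytic subunit gene, had log2 ratios of -1.06, -1.59 and -0.18 on the o-Nitrophenol arrays. TPK3 had -0.58 on both m-Nitrophenol arrays 2 and 3, and 0.12, 0.15 and 0.30 on the p-Nitrophenol arrays. Every value was negative in o- and m-Nitrophenol and every value positive in p-Nitrophenol. The means were -0.94 ± 0.29 in o-Nitrophenol (n = 3), -0.58 ± 0.36 in m-Nitrophenol (n = 2) and 0.19 ± 0.29 in p-Nitrophenol (n = 3). Without o-Nitrophenol array 2 the o-Nitrophenol mean was -0.62. In o-Nitrophenol TPK2 values were positive and TPK3 values negative, and the log2 ratio of TPK2 exceeded that of TPK3 by 2.24, 2.01 and 0.54 within the arrays. The same difference was 0.90 and 0.67 in m-Nitrophenol and 1.33, -1.15 and -0.30 in p-Nitrophenol.

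BCY1 (YIL033C), the regulatory subunit gene, had log2 ratios of -0.37, 0.30 and -0.34 on the o-Nitrophenol arrays and 0.07 and -0.26 on m-Nitrophenol arrays 2 and 3. On the p-Nitrophenol arrays BCY1 had -1.55, -0.87 and -1.16. The p-Nitrophenol values lay below all those of the other isomers, which overlapped each other around 0. The means were -0.14 ± 0.26 in o-Nitrophenol (n = 3), -0.10 ± 0.32 in m-Nitrophenol (n = 2) and -1.19 ± 0.26 in p-Nitrophenol (n = 3), which was 2.29-fold lower than before treatment. Both scans agreed closely on p-Nitrophenol arrays 1 and 2, at -1.58 and -1.52 and at -0.88 and -0.86 with high and low power. Without the arrays numbered 1 the p-Nitrophenol mean was -1.01. Set against its catalytic partner within an array, the log2 ratio of TPK3 lay below that of BCY1 by a mean difference of -0.81 in o-Nitrophenol (SD 1.03, n = 3) and -0.48 in m-Nitrophenol (SD 0.24, n = 2), and above it by 1.38 in p-Nitrophenol (SD 0.33, n = 3). The mean difference of TPK2 from BCY1 was 0.79, 0.30 and 1.34 in o-, m- and p-Nitrophenol, with an SD of 1.57 in p-Nitrophenol.

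In the fit across all genes (limma, Benjamini-Hochberg adjustment over 5096 genes, threshold 0.05), 3 of the 7 members were past the threshold in o-Nitrophenol against before treatment, namely GPG1 and RGS2 with higher values and TPK3 with a lower one, where 32.4% of all genes were, 13.8% higher and 18.7% lower. In m-Nitrophenol 1 member was, GPG1, where 17.9% of all genes were, 8.26% higher and 9.65% lower. In p-Nitrophenol 2 members were, GPG1 with a higher value and BCY1 with a lower one, where 24.9% of all genes were, 13% higher and 11.9% lower. The median log2 ratio of the 7 members was -0.14, 0.07 and 0.15 in o-, m- and p-Nitrophenol, beside -0.17, 0.04 and 0.10 over all genes tested. With the replicate number as a block, 3, 1 and 3 members were past it in o-, m- and p-Nitrophenol, where 40.2%, 24.5% and 32% of all genes were. GPB1 in p-Nitrophenol was the member added by the block, and it was also past the threshold without o-Nitrophenol array 1 and without the 3 arrays numbered 1. In those 2 fits 33.4% and 42.1% of all genes were past it in p-Nitrophenol, against 24.9% with all arrays. BCY1 in p-Nitrophenol was not past it without p-Nitrophenol array 3, where its value was -1.21. TPK3 in o-Nitrophenol was past it in 9 of 20 alternatives, and not when o-Nitrophenol array 1 or 2 or array 2 or 3 of another isomer was left out, nor after each array was centred on its median (-0.78).

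**Figure D2:**
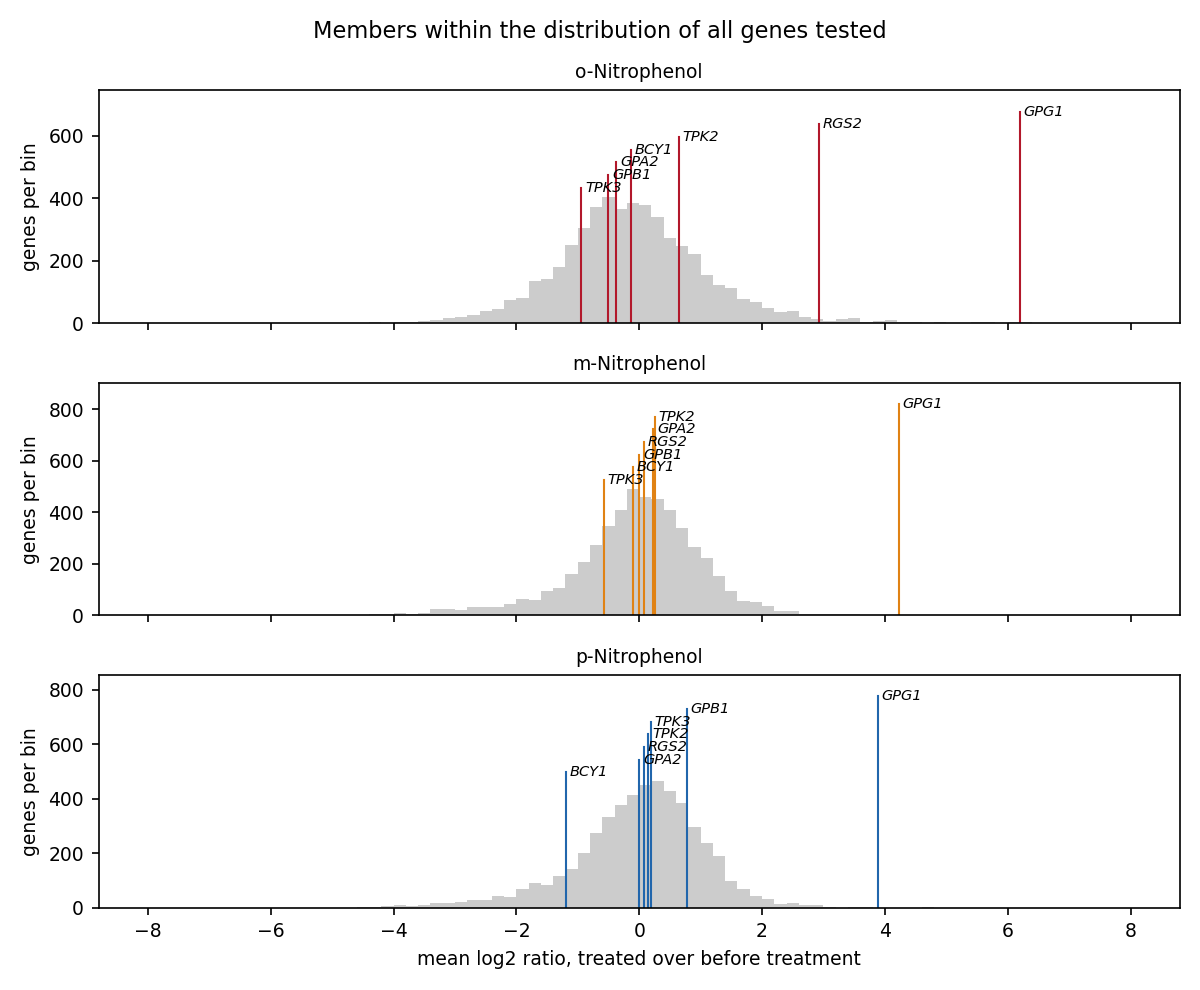
Histograms (bins of equal width) of the mean log2 ratio of all 5096 genes tested, with o-Nitrophenol at the top, m-Nitrophenol in the middle and p-Nitrophenol at the bottom, and a line at the mean of each of the 7 members. GPG1 lies in the far right tail in all 3 panels, RGS2 in the right tail in o-Nitrophenol, and most other members lie within the bulk of the distribution.

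The 3 comparisons between isomers share arrays, and the doses differed. RGS2 had the largest difference of the 7 members in both comparisons with o-Nitrophenol with all arrays in the fit, and one near 0 between m- and p-Nitrophenol. Its log2 ratio was 2.93 in o-Nitrophenol and 0.07 in m-Nitrophenol, a difference of 2.87 ± 0.44 (95% interval 1.85 to 3.88), and against p-Nitrophenol, at 0.07, the difference was 2.86 ± 0.44 (1.85 to 3.88). RGS2 was the 1 member past the threshold for o-Nitrophenol minus m-Nitrophenol, where 0.726% of all genes were (0.412% higher and 0.314% lower), and also for o-Nitrophenol minus p-Nitrophenol, where 1.18% were (0.824% higher and 0.353% lower). With the replicate block RGS2 was still the 1 member, where 3.53% of all genes were past it for o-Nitrophenol minus m-Nitrophenol and 3.71% for o-Nitrophenol minus p-Nitrophenol. No member was past it for m-Nitrophenol minus p-Nitrophenol, where 0.0196% of all genes were. At an unadjusted p under 0.05 there were 2, 5 and 1 members for o- minus m-, o- minus p- and m- minus p-Nitrophenol, where 17.7%, 19.3% and 7.14% of all genes were. Both RGS2 calls ended without array 2 or 3 of any isomer, with values of 2.59 to 2.96 for o-Nitrophenol minus m-Nitrophenol and 2.59 to 3.13 for o-Nitrophenol minus p-Nitrophenol in those fits. They also ended after quantile normalization (2.50 and 2.49) and scale normalization (2.54 and 2.51).

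GPG1 was higher in o-Nitrophenol than in m-Nitrophenol by 1.97 ± 0.79 (0.22 to 3.72) and than in p-Nitrophenol by 2.32 ± 0.79 (0.57 to 4.07), and neither difference was past the threshold over all genes. The size of both depended on how arrays were scaled. After quantile normalization, which gives every array the same distribution of ratios, they were 0.01 and 0.50, while the GPG1 ratios themselves stayed high, at 5.03, 5.02 and 4.53 in o-, m- and p-Nitrophenol. Without p-Nitrophenol array 1 the o-Nitrophenol minus p-Nitrophenol difference was 3.41 and passed the threshold, as did the o-Nitrophenol minus m-Nitrophenol difference of 1.97. In that fit 4.14% and 3.14% of all genes passed, against 1.18% and 0.726% with all arrays. Without the 3 arrays numbered 1 the differences were 3.24 and 1.78 and also passed, in a fit where 21.3% and 20.7% of all genes did. GPG1 then exceeded RGS2 for o- minus p-Nitrophenol, at 3.24 against 3.04. For m-Nitrophenol minus p-Nitrophenol GPG1 differed by 0.35 ± 0.79 (-1.40 to 2.10), an interval that leaves room for a difference of several-fold.

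For BCY1 the 2 isomers with values near 0 exceeded p-Nitrophenol by similar amounts, 1.06 ± 0.37 for o-Nitrophenol minus p-Nitrophenol (0.22 to 1.89) and 1.09 ± 0.42 for m-Nitrophenol minus p-Nitrophenol (0.16 to 2.03). GPB1 differed by -1.27 ± 0.41 for o-Nitrophenol minus p-Nitrophenol (-2.21 to -0.33) and TPK3 by -1.13 ± 0.42 (-2.06 to -0.20). None of these was past the threshold over all genes. The arrays of the isomers did not overlap, a description that rests on few arrays and has no share of all genes beside it. The 95% intervals did not hold 0. Such an interval equals an unadjusted p under 0.05. That was reached by 19.3% of all genes for o-Nitrophenol minus p-Nitrophenol and by 7.14% for m-Nitrophenol minus p-Nitrophenol. For GPB1 the o-Nitrophenol minus p-Nitrophenol difference passed without the 3 arrays numbered 1, at -1.30. For m-Nitrophenol minus p-Nitrophenol GPB1 differed by -0.77 ± 0.41 (-1.71 to 0.17) and TPK3 by -0.77 ± 0.46 (-1.81 to 0.27). For o-Nitrophenol minus m-Nitrophenol GPB1 differed by -0.50 ± 0.45 (-1.53 to 0.53), TPK3 by -0.36 ± 0.46 (-1.40 to 0.68) and BCY1 by -0.04 ± 0.42 (-0.98 to 0.90). GPA2 and TPK2 had intervals that held 0 in all 3 comparisons, for TPK2 between o- and p-Nitrophenol from -0.73 to 1.74.

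**Figure D3:**
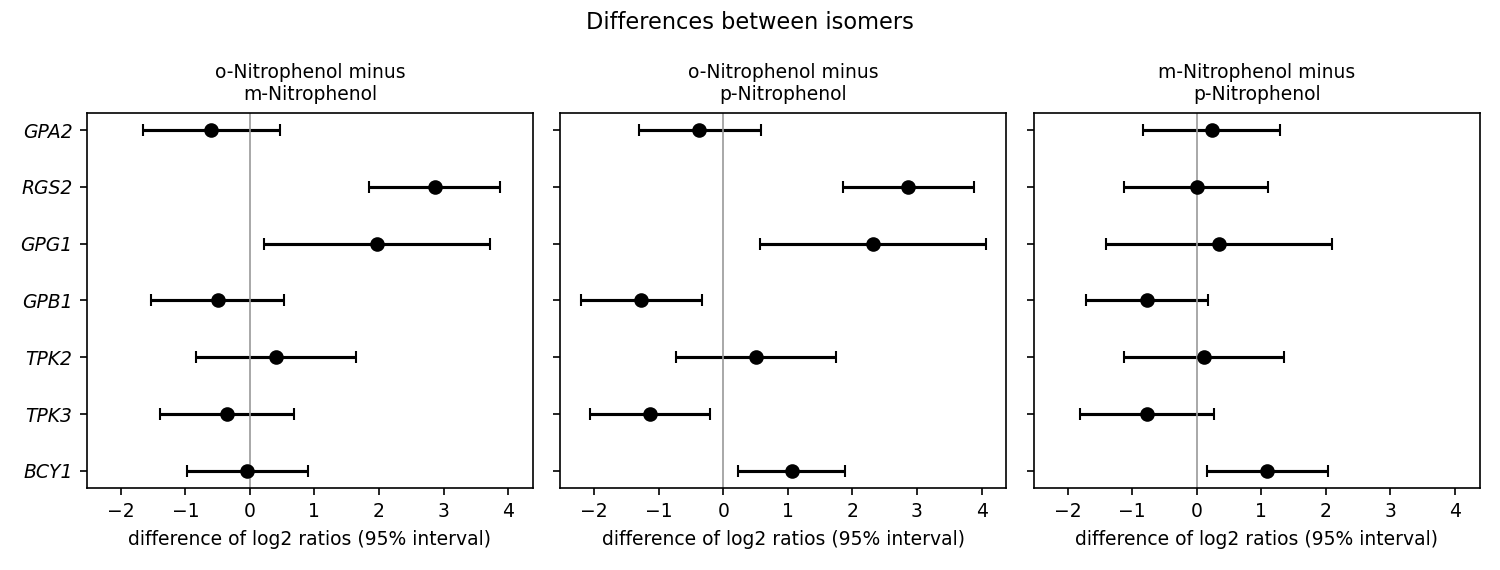
Difference of mean log2 ratios between isomers for each member, with its 95% interval from the fit (horizontal axis, log2), for o-Nitrophenol minus m-Nitrophenol, o-Nitrophenol minus p-Nitrophenol and m-Nitrophenol minus p-Nitrophenol. RGS2 lies at 2.87 and 2.86 in the panels with o-Nitrophenol and at -0.00 in the remaining one.

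The genes with values on all 9 arrays and a standard name, 1629 besides the member compared, were ranked by the root mean square difference of their log2 ratios from those of GPG1 and TPK2. Nearest to GPG1 was HSP12, a membrane stress protein gene, at 1.10, with a Pearson r of 0.91 over the 9 arrays, and next was the stress gene DDR2 at 1.56 (r = 0.73), against a median of 4.93 over all genes compared. This distance counts the height of the ratios as well as their pattern. A gene with ratios near 0 is far from GPG1 by height alone, so the median of 4.93 is no measure of shared pattern. HSP12 had means of 5.75, 3.41 and 2.59 and DDR2 of 6.17, 2.65 and 3.16 in o-, m- and p-Nitrophenol. Like GPG1, HSP12 and DDR2 were higher on p-Nitrophenol array 1, at 4.45 and 4.0, than on array 2, at 1.50 and 2.53, and array 3, at 1.82 and 2.95. On o-Nitrophenol array 1 HSP12 and DDR2 stood at 7.17 and 8.95, above their other o-Nitrophenol values by more than GPG1 did. Nearest to TPK2 were COX13, a cytochrome oxidase subunit gene, at 0.32 (r = 0.88), and AIM18 at 0.39 (r = 0.90), against a median of 1.23. These points share arrays, among them those numbered 1, whose part in the likeness was not tested.

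**Figure D4:**
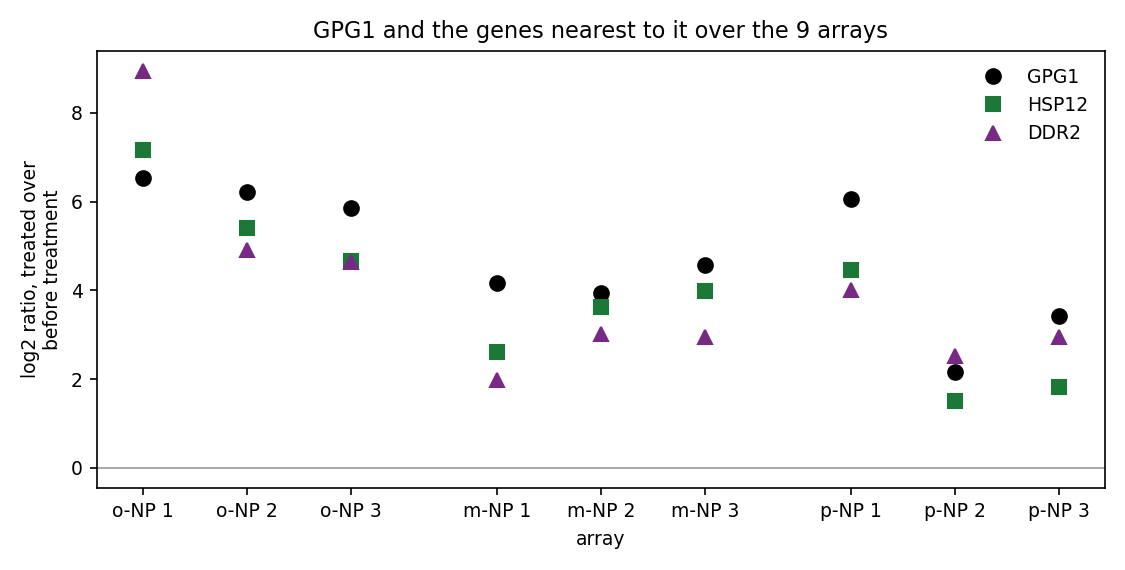
Log2 ratio (treated over before treatment) of GPG1, HSP12 and DDR2 on each of the 9 arrays, grouped as o-Nitrophenol (o-NP), m-Nitrophenol (m-NP) and p-Nitrophenol (p-NP). All values are above 0, and in p-Nitrophenol all 3 genes are highest on array 1.

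In chromosomal order the genes on both sides of GPG1 did not share its values. NAB2 had means of 0.23, 0.31 and 0.54 and PRP43 of -1.21, -1.03 and -1.76 in o-, m- and p-Nitrophenol. Beside RGS2, VAM3 had 0.19, 0.15 and 0.50, and LEU9 had -0.93, -1.89 and -1.92. Neighbours of the other members varied. In o-Nitrophenol, beside TPK3 at -0.94, MCD4 had -1.05 and MRP49 had 0.20.

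Other genes of the pathway were taken from 6 lists, written from textbook knowledge with earlier results of these data known. The counts per list are therefore a description. Of the 87 genes 78 were tested, and p-values in this part are limma's, adjusted over all 5096 genes. In the list of Ras, cyclic AMP turnover and partners of Gpr1 and Gpa2, 8 of 12 genes were tested, and 2 rose and 2 fell in o-Nitrophenol, with 1 falling in each of m- and p-Nitrophenol. ASC1, a ribosome-bound protein that also acts as a beta subunit for Gpa2, fell by 2.09 ± 0.54, 3.36 ± 0.44 and 3.91 ± 0.44 in o-, m- and p-Nitrophenol (adjusted p = 0.0173, 0.00175 and 0.000956). In o-Nitrophenol PDE1, a cyclic AMP phosphodiesterase gene, rose by 1.31 ± 0.34 (adjusted p = 0.0248) and PLC1, phospholipase C, by 1.99 ± 0.48 (0.0158), while RAS1, a GTPase that activates adenylate cyclase, fell by 1.93 ± 0.40 (0.00576). The 4, 1 and 1 genes called were 50%, 12.5% and 12.5% of the list, beside 32.4%, 17.9% and 24.9% of all genes. The list medians, -0.22, -0.15 and -0.06 in o-, m- and p-Nitrophenol, were near those of all genes (-0.17, 0.04 and 0.10). The o-Nitrophenol calls of ASC1, PDE1 and PLC1, each measured on 2 o-Nitrophenol arrays, ended without o-Nitrophenol array 2 or 3.

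Of 13 tested kinases and transcription factors that act with or below protein kinase A, 2 rose and 2 fell in o-Nitrophenol, 0 did either in m-Nitrophenol, and 1 rose and 1 fell in p-Nitrophenol. These were 30.8%, 0% and 15.4% of the list, near or below the 32.4%, 17.9% and 24.9% of all genes, and the list medians were 0.27, -0.19 and -0.40. The transcription factor genes PHD1 and SOK2 rose by 1.65 ± 0.32 and 1.27 ± 0.31 in o-Nitrophenol (adjusted p = 0.00472 and 0.0167), and SCH9, a growth-promoting kinase gene, fell by 2.08 ± 0.53 (0.0167). BMH2, a 14-3-3 protein gene, rose by 1.29 ± 0.29 in p-Nitrophenol (0.0112). MSN2, named after its values were seen, fell by 0.73 ± 0.24 in o-Nitrophenol and by 0.77 ± 0.24 in p-Nitrophenol (0.0422 and 0.0416), calls that ended in 14 and 10 of 20 alternatives, the removal of array 2 or 3 of any isomer among them. The calls of SOK2 without o-Nitrophenol array 3, SCH9 without o-Nitrophenol array 2 or 3 and BMH2 without p-Nitrophenol array 1 or 2 ended too.

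Of 28 stress and reserve genes that protein kinase A holds down, 17 rose and 0 fell in o-Nitrophenol, 10 rose and 0 fell in m-Nitrophenol, and 5 rose and 1 fell in p-Nitrophenol. Called were 60.7%, 35.7% and 21.4% of the list, beside 32.4%, 17.9% and 24.9% of all genes. Their medians were 2.31, 1.04 and 0.52, beside -0.17, 0.04 and 0.10 over all genes. HSP104, a disaggregase gene, had 4.40, 4.29 and 3.35 on the o-Nitrophenol arrays, 1.46, 1.61 and 1.11 on the m-Nitrophenol arrays and 0.98, 0.67 and 1.15 on the p-Nitrophenol arrays. HSP104 exceeded m-Nitrophenol in o-Nitrophenol by 2.62 ± 0.38 (adjusted p = 0.0215) and p-Nitrophenol by 3.08 ± 0.38 (0.00661). DDR48 rose by 3.50 ± 0.29, 3.01 ± 0.29 and 2.93 ± 0.29 in o-, m- and p-Nitrophenol (adjusted p = 8.98e-05, 0.000474 and 0.000428). HSP12 rose by 5.75 ± 0.59, 3.41 ± 0.59 and 2.59 ± 0.59 (0.000227, 0.00472 and 0.0124). The aldehyde dehydrogenase gene ALD3 rose by 4.84 ± 0.43 in o-Nitrophenol and 2.08 ± 0.43 in m-Nitrophenol (0.000106 and 0.00982) and stood at 0.58 ± 0.43 in p-Nitrophenol. CTT1, cytosolic catalase and named after its values were seen, was the gene that fell, and in p-Nitrophenol it fell by 2.11 ± 0.58 (0.0259), while it rose by 4.17 ± 0.58 in o-Nitrophenol (0.000961). For o-Nitrophenol minus p-Nitrophenol CTT1 and ALD3 were also called, at 6.28 ± 0.83 and 4.26 ± 0.61 (both 0.00896), though not without p-Nitrophenol array 2 or 3, nor ALD3 without o-Nitrophenol array 3. The HSP12 call in p-Nitrophenol ended without p-Nitrophenol array 1, where its value was 1.66. Those of HSP104 in p-Nitrophenol without any of its arrays, of HSP12 in m-Nitrophenol without array 2 or 3, of ALD3 in m-Nitrophenol without array 1 or 2, of HSP104 in m-Nitrophenol without array 2 and of CTT1 in p-Nitrophenol without array 2 or 3 ended as well. The HSP104 difference between o- and m-Nitrophenol was no longer called without o-Nitrophenol array 2 or m-Nitrophenol array 2 or 3, and that between o- and p-Nitrophenol without p-Nitrophenol array 2.

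Of 18 tested genes of plasma membrane glucose sensing and glucose repression, 3 rose and 2 fell in o-Nitrophenol, and 1 rose and 2 fell in each of m- and p-Nitrophenol. These were 27.8%, 16.7% and 16.7% of the list, all below the shares of all genes (32.4%, 17.9% and 24.9%), with list medians of -0.47, -0.08 and -0.13. YCK2, a membrane casein kinase gene, fell by 1.41 ± 0.23 in m-Nitrophenol and 1.34 ± 0.23 in p-Nitrophenol (adjusted p = 0.00393 and 0.00407) and by 0.72 ± 0.23 in o-Nitrophenol (0.0397, lost in 12 of 20 alternatives, the removal of any o-Nitrophenol array among them), and its paralog YCK1 fell by 1.57 ± 0.28 in o-Nitrophenol (0.00346). The repressor gene MIG3 rose by 1.08 ± 0.30 in o-Nitrophenol and 1.18 ± 0.30 in m-Nitrophenol (0.0267 and 0.0309), and RGT1, also a repressor, fell by 1.47 ± 0.37 in p-Nitrophenol (0.026). Named after their values were seen, MTH1 and GLC7 rose in o-Nitrophenol by 2.44 ± 0.79 and 1.82 ± 0.55 (0.0378 and 0.0324), STD1 rose in p-Nitrophenol by 1.31 ± 0.39 (0.0349), and the hexokinase gene HXK2 fell in m-Nitrophenol by 0.81 ± 0.23 (0.0381). Each of these MIG3, RGT1, GLC7, STD1 and HXK2 calls ended when array 2 or 3 of the same isomer was left out, and that of MTH1 without o-Nitrophenol array 1 or 2. Some also ended without other arrays, MIG3 in m-Nitrophenol without o-Nitrophenol array 3 or p-Nitrophenol array 2 or 3, HXK2 without those arrays or m-Nitrophenol array 1, STD1 without p-Nitrophenol array 1 or m-Nitrophenol array 2, and MTH1 without m-Nitrophenol array 2 or 3. Of 6 tested genes of the pheromone G protein, 1 rose and 3 fell in o-Nitrophenol, 0 did either in m-Nitrophenol, and 1 rose and 2 fell in p-Nitrophenol, or 66.7%, 0% and 50% of this short list, with medians of -1.01, -0.14 and -0.40. STE3, the receptor for a-factor, fell by 3.92 ± 0.48 in o-Nitrophenol and 2.24 ± 0.48 in p-Nitrophenol (0.000476 and 0.00915), and the beta subunit gene STE4 fell by 1.42 ± 0.25 and 0.90 ± 0.25 (0.00277 and 0.0263). AKR1, a palmitoyltransferase gene, fell by 1.17 ± 0.25 in o-Nitrophenol (0.00761). The gamma subunit gene STE18 rose by 1.50 ± 0.39 and 1.49 ± 0.39 in the same isomers (0.0153 and 0.0202). The p-Nitrophenol calls of STE3, STE4 and STE18 ended without p-Nitrophenol array 2, those of STE4 and STE18 without array 1 and those of STE3 and STE4 without array 3, and the STE18 call in o-Nitrophenol without o-Nitrophenol array 1 or 2. Of 5 tested filamentous growth genes 1 was called, STE12, which fell by 2.13 ± 0.33 in o-Nitrophenol (0.00347), and the list medians were -0.16, -0.38 and -0.59. Called were 20%, 0% and 0% of this list in o-, m- and p-Nitrophenol, below the 32.4%, 17.9% and 24.9% of all genes.

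**Figure D5:**
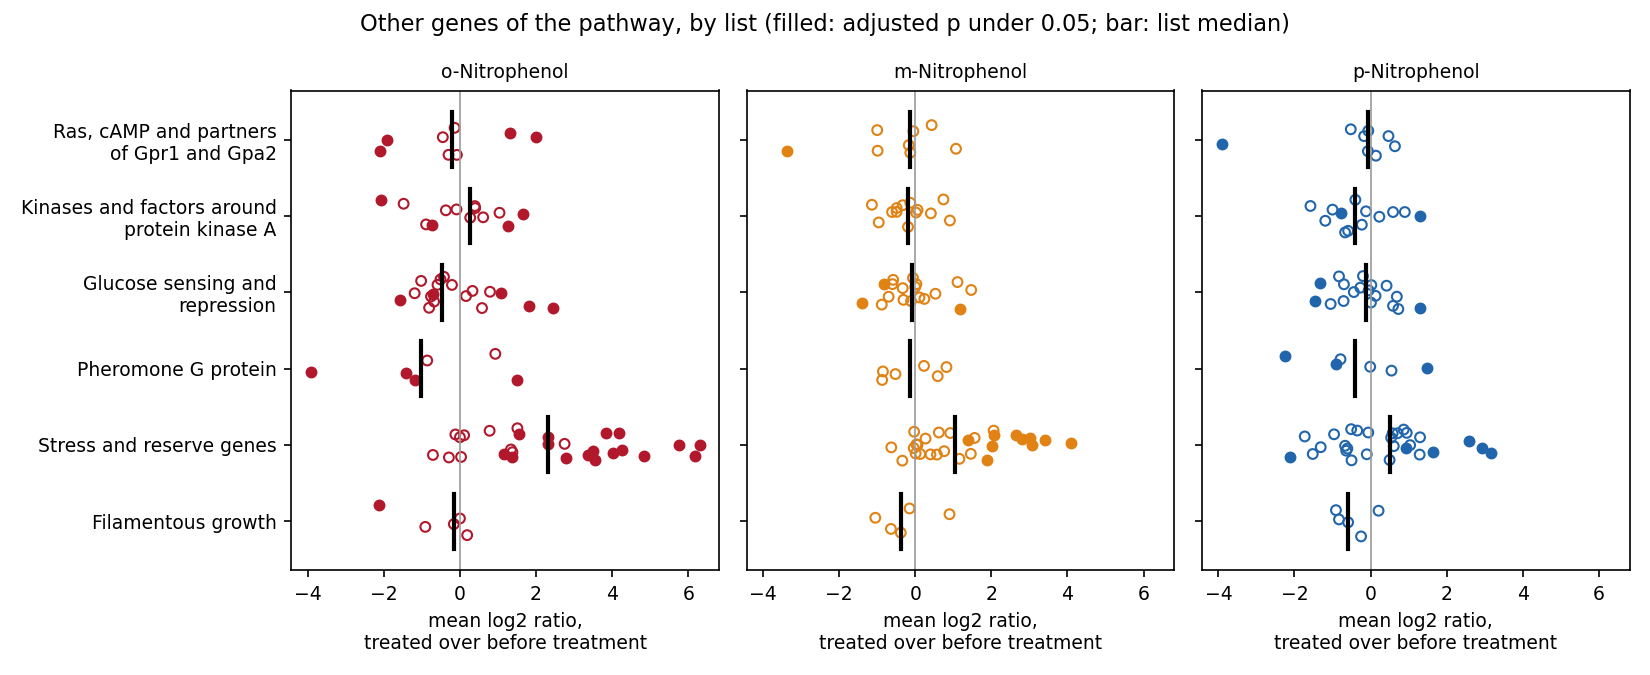
Mean log2 ratio (treated over before treatment) of the tested genes of 6 pathway lists, with o-Nitrophenol, m-Nitrophenol and p-Nitrophenol from left to right. Filled points have an adjusted p under 0.05 and bars are list medians, which for stress and reserve genes lie at 2.31, 1.04 and 0.52.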

How the data were processed

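Whole-culture polyA RNA was compared on 9 2-colour arrays, 3 per isomer, each scanned at high and low laser power. The deposited values are log2 ratios that the authors normalized with LOWESS from spots with flag 0, per the labels; background correction and genome build are not given in the sources used here. The log2 scale was read from the values, 13 of which lie at the log2 of 0.01, and the medians of the 18 scans ran from -0.13 to 0.12. The direction is likely but not stated, the centring is that of the deposited values, and spot intensities were not used here, so signal over background could not be examined. A scan held values for 766 to 6080 of 6912 probes, and the reasons for the gaps beyond the flag are not stated.

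Of the probes 5513 had 1 symbol in an older platform annotation, 1399 had none and 0 several; 5360 of 5365 genes matched the RefSeq table of assembly R64, which updated symbols and gave neighbours. Probes of a gene and then the scans of an array were averaged. limma 3.58.1 in R 4.3.3 fitted group means to the 9 arrays (6 residual, 4.409 prior degrees of freedom) for genes with values on at least 2 arrays of each group, each gene's standard error taken from its own arrays. The isomers shared 1 spread per gene, so standard errors and intervals do not follow the SD of each isomer. The fit was tested on simulated data. Benjamini-Hochberg adjustment ran within each comparison over all 5096 genes, with a threshold of 0.05. The number of arrays limits the precision.

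Members, lists and alternatives were chosen with earlier results of these data known. Named were all members, of each list up to 4 called genes with the smallest adjusted p, the 2 genes nearest to each member measured on all 9 arrays, and CTT1, MSN2, MTH1, GLC7, STD1 and HXK2, chosen after their values were seen. Promoter motifs were not searched, since no sequence was used here. Alternatives were the scan used, both scans kept apart with a random array effect (statmod 1.5.0), 3 scalings, the filter on missing values, the variance prior, the arrays in the fit, the replicate block and arrays left out. The replicate numbers were checked as pairs by the correlation of deviations from group means over 1757 genes, which was 0.27 to 0.37 between o- and p-Nitrophenol, 0.12 to 0.26 between m- and p-Nitrophenol, and 0.06 to 0.22 between o- and m-Nitrophenol. Between o- and m-Nitrophenol it was 0.10, 0.22 and 0.06 for numbers 1, 2 and 3. Each array of the isomer named first matched best the array of the same number in the other isomer. The exception was number 3 between o- and m-Nitrophenol. The main fit does not use the replicate numbers, and the labels name no shared batch.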

Additional observations from a re-analysis of the deposited data

Results flagged for a closer look

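RGS2 is listed here because its log2 ratio in o-Nitrophenol lay past the threshold above those in the other isomers. For o-Nitrophenol minus m-Nitrophenol the difference was 2.87, and for o-Nitrophenol minus p-Nitrophenol it was 2.86. The genes were selected on values of these arrays, so both differences are a description, and neither the threshold nor how often it was passed supports them. The o-Nitrophenol value was higher on 3 of 3 arrays than on every array of the other isomers with a value. This too is a description, and the share of all genes separated in this way is not given here. The m- and p-Nitrophenol means rest on 2 arrays each, none of them numbered 1, and the doses were 3, 5 and 1.5 mM in o-, m- and p-Nitrophenol, so dose and isomer cannot be told apart.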

How the results depend on the processing

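Of 840 member values under alternatives, 829 moved by less than the spread between arrays and 11 by more, and 0 values that were past the threshold changed sign. Many of the 840 could not move. A change of the variance prior, or leaving out an array of another isomer, keeps the mean of an isomer as it was. The 829 are therefore no measure of how stable the values are. Values near 0 did change sign, such as TPK2 in p-Nitrophenol, 0.15 and, without the arrays numbered 1, -0.50. Of the 7 members, 1 was past the threshold for o-Nitrophenol minus m-Nitrophenol, and 0 were with high-power scans, quantile or scale normalization or the arrays of the compared groups alone, while 2 were without the 3 arrays numbered 1, where 20.7% of all genes were, against 0.726% with all arrays. For o-Nitrophenol minus p-Nitrophenol the same 4 settings gave 0, low-power scans 2, where 2.94% of all genes were, and the arrays without number 1 gave 3, where 21.3% were, against 1.18% with all arrays. With 1 array left out, 1 to 3 members were past it in p-Nitrophenol and 0 to 2 for each of these differences. In those fits 9.79% to 33.4% of all genes were past it in p-Nitrophenol. For o- minus m- and o- minus p-Nitrophenol 0.0392% to 5.75% and 0.118% to 4.14% were. Requiring both scans of all 9 arrays left 306 genes and no member, and each member has 1 probe, so probes could not be compared.

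Of the 78 pathway genes tested, 35, 14 and 15 were called in o-, m- and p-Nitrophenol, or 44.9%, 17.9% and 19.2% beside 32.4%, 17.9% and 24.9% of all genes. For o- minus m-, o- minus p- and m- minus p-Nitrophenol 1, 3 and 0 were called, or 1.28%, 3.85% and 0%. The shares of all genes were 0.726%, 1.18% and 0.0196%. With both scans of all 9 arrays only 5 pathway genes were left to test, of which 1, 0 and 2 were called, and 0 for o- minus m- and o- minus p-Nitrophenol. Of all 306 genes in that fit 32%, 24.5% and 37.9% were called, and 0.98% and 1.63% for these differences. Without the arrays numbered 1 there were 34 in m- and 42 in p-Nitrophenol, and 24, 26 and 17 for the 3 differences. In that fit the shares of all genes rose too, to 40.1% and 42.1%, and to 20.7%, 21.3% and 5.73% for the 3 differences. High-power scans gave 0 for o- minus m-Nitrophenol, where 0.238% of all genes were called. Low-power scans gave 4, 5 and 1 for the 3 differences, where 3.87%, 2.94% and 0.053% were. The array as a random block gave 8 for o- minus m- and 14 for o- minus p-Nitrophenol, where 4.43% and 4.89% of all genes were called. Centring and scale normalization each gave 2 for o- minus m-Nitrophenol, where 1.3% and 1.26% were. The arrays of the compared groups alone gave 25 in m-Nitrophenol and 0 for o- minus m-Nitrophenol, where 24.9% and 0.255% of all genes were called. With 1 array left out the counts were 23 to 41, 4 to 21 and 5 to 23 in o-, m- and p-Nitrophenol, 0 to 6 for o- minus m- and 0 to 14 for o- minus p-Nitrophenol. Of all genes 16.5% to 37.8%, 2.88% to 25.1% and 9.79% to 33.4% were called in those fits. For these differences 0.0392% to 5.75% and 0.118% to 4.14% were.

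With the replicate number as a block, 25 pathway genes were called in p-Nitrophenol, 7 for o- minus m- and 10 for o- minus p-Nitrophenol. The shares of all genes in that fit were 32%, 3.53% and 3.71%. The block put GPB1 past the threshold in p-Nitrophenol, at 0.77, and changed no other member's call. It raised the genes called for o- minus p-Nitrophenol to 189, against 60 without it, and for o- minus m-Nitrophenol to 180, against 37. Between o- and m-Nitrophenol the arrays numbered 1 and 2 matched best by number and those numbered 3 did not. Why these counts move was not tested. Over the 11 alternatives that left out no single array and tested 3776 to 5328 genes, 20.6% to 51.5%, 16.9% to 40.1% and 19.1% to 42.1% of genes were called in o-, m- and p-Nitrophenol, against 32.4%, 17.9% and 24.9%. For o- minus m-, o- minus p- and m- minus p-Nitrophenol the counts were 12 to 1054, 22 to 1083 and 0 to 292, against 37, 60 and 1.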
